A study of Mus musculus with 8 samples.

Results

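The common gamma chain cytokine receptors were followed in gamma delta (γδ) T cells that had been sorted out of visceral fat of C57BL/6 mice. The set was the 8 genes whose symbols are Il2rg, Il2rb, Il2ra, Il15ra, Il7r, Il4ra, Il9r and Il21r, and all 8 were found among the 47729 genes listed. Libraries of polyA RNA came from 4 samples of mice on control chow and 4 samples of mice on a ketogenic diet (KD), a regimen low in carbohydrate and high in fat, fed for 1 week. Samples carry the numbers 1 to 4 in each diet, and the labels give neither sex nor age, and do not say whether a sample was 1 mouse or a pool. The p-values therefore only set the diet difference against the spread between these samples, and some of that spread may be technical. The libraries were made to examine the role of these cells in fat, and the comparison taken up here is whether the transcripts of their cytokine receptors differ between the diets. RNA was measured in bulk, so fewer cells of a type and less RNA per cell cannot be told apart.

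The common gamma chain, the product of Il2rg, is a signalling subunit shared by the receptors for IL-2, IL-4, IL-7, IL-9, IL-15 and IL-21. Each cytokine joins it to its own partner chain. The receptors signal through the kinases JAK1 and JAK3 to STAT proteins, and IL-7 and IL-15 sustain the survival of many T cells, γδ T cells included. Il2rb serves both IL-2 and IL-15. Il2ra and Il15ra encode the α chains that raise affinity for IL-2 and IL-15 and belong to the sushi domain proteins, while the other 6 chains carry the cytokine receptor fold.

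The feature that sets the 6 chains of the cytokine receptor fold apart is visible in their messages. The coding letters of the WSXWS motif (tryptophan, serine, any residue, tryptophan, serine) are shown in capitals with 9 bases on either side, from GENCODE M21 transcripts on GRCm38, to show which members share it. Each of the 6 holds 1 in-frame match, and Il2ra and Il15ra hold 0. Among 22527 genes with a principal coding sequence, 71 (0.315%) hold such a match.
Il2rg: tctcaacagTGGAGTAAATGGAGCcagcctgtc
Il2rb: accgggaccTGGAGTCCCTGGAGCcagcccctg
Il4ra: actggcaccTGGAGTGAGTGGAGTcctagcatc
Il7r: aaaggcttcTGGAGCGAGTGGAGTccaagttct
Il9r: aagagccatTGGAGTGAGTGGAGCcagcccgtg
Il21r: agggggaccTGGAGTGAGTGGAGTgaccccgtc

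The sites lie at chrX:101266215-101266229 (minus strand, exon 5 of the transcript) for Il2rg and chr15:78485763-78485777 (minus strand, exon 7) for Il2rb. They lie at chr7:125571554-125571568 (plus strand, exon 7) for Il4ra and chr7:125628998-125629012 (plus strand, exon 6) for Il21r. The Il7r site is at chr15:9511151-9511165 (minus strand, exon 5) and the Il9r site at chr11:32193211-32193225 (minus strand, exon 6).

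Il2rg spans chrX:101264378-101268255, Il2rb chr15:78479256-78495271 and Il7r chr15:9505788-9530176 (all on the minus strand, GRCm38). Pairs of members are neighbours on chromosomes 2 and 7. Il4ra (chr7:125552120-125579474) and Il21r (chr7:125603429-125633570) lie on the plus strand with 23954 bases between them, and Il2ra (chr2:11642807-11693193) and Il15ra (chr2:11705290-11734317) lie on the plus strand with 12096 bases between them. No other annotated gene lies within either gap. Il9r spans chr11:32187541-32200279 on the minus strand. Exons of Il4ra share 571 bases with Gm44876 on the other strand, and exons of Il2rg share 185 bases with Gm20489 on the same strand. The strand setting was not given in the sources used here, so reads in those bases cannot be assigned with certainty.

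Library totals ran from 19796126 to 31926441 estimated counts. Trdc, the constant region gene of the δ chain, stood at 3952 to 4760 CPM (counts of each library scaled to a common total with TMM factors) in the 8 libraries. The 10 γδ T cell markers found of 13 listed summed to 9483 to 9765 CPM in chow and 9601 to 10537.5 CPM in KD. The sum takes in Cd3e, Cd3g, Cd3d and Cd247, which are not specific to γδ T cells. Of these 10, 8 had a positive fold change, 2 lay higher in KD without overlap and 0 were called. Over all tested genes 50.9% had a positive fold change, 3.3% lay higher without overlap and 0.328% were called higher. Foxp3, the factor of regulatory T cells, stood at 0.528 CPM or less, and Cd4 had 0 counts in all libraries. The 7 αβ T cell markers, Cd4 among them, summed to 769 to 934 CPM in chow and to 803 to 1032.5 CPM in KD. RNA typical of other cells differed between libraries. The 14 stromal and mesothelial markers summed to 16.5 to 215 CPM in chow and to 32.3, 568, 499.7 and 649.6 CPM in KD replicates 1 to 4. Of 11 tested, 3 were called higher in KD, beside 0.328% of all tested genes. The 10 endothelial markers summed to 49.7 to 115 CPM in chow and to 51.9, 59.9, 260.3 and 381 CPM in KD, with 0 of 7 tested called. The 7 adipocyte markers summed to 3.07 to 36.6 CPM in chow and 4.29 to 404 CPM in KD. Fabp4 alone held 216 of 228 CPM in KD replicate 3 and 386 of 404 CPM in KD replicate 4. Adipoq, Plin1 and Cidec stood at 0.927 CPM or less in every library, and Lep had 0 counts. The 12 macrophage markers summed to 7.55 to 105 CPM in chow and 10.6 to 49.6 CPM in KD. The 10 markers of NK cells and ILC2 summed to 373 to 418 CPM in chow and to 437, 346, 303 and 305 CPM in KD replicates 1 to 4. Gata3 alone stood at 138 to 183 CPM in chow and 123 to 176 CPM in KD. Klrb1c and Ncr1 were lower in KD replicates 2 to 4 than in any chow library. Of 7 tested, 5 had a negative fold change, 2 (Calca and Il5) lay lower in KD without overlap and 0 were called. Over all tested genes 49.1% had a negative fold change, 2.75% lay lower without overlap and 0.179% were called lower. The 8 B cell markers summed to 157 to 192 CPM in chow and 155 to 237 CPM in KD.

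The order of the receptor transcripts was the same in both diets on the deposited FPKM scale, which counts fragments per kilobase of gene and so allows genes to be compared. Il2rg was the most abundant at 1201 ± 3.85 FPKM in chow and 1322 ± 43.5 in KD (SD, n = 4 each), and it ranked 56th among the 13397 tested genes by mean FPKM. Il2rb followed at 504 ± 51.1 and 437 ± 17.2 FPKM, and Il7r, the IL-7 receptor α chain, at 266 ± 20.4 and 288 ± 20.01 FPKM. Il2ra, better known as CD25, was at 105 ± 4.83 and 88.8 ± 7.85 FPKM. Il4ra, the chain that binds IL-4, was at 65.2 ± 17.3 and 46.01 ± 9.60 FPKM, and Il21r, the chain that binds IL-21, at 53.3 ± 8.89 and 40.6 ± 2.30 FPKM. Il15ra was far lower, at 7.15 ± 4.81 and 6.19 ± 1.24 FPKM, and Il9r was listed at 0 in all chow libraries.

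Within each diet the lowest library of a gene lay above the highest library of the next gene in that order, except for Il4ra and Il21r, whose ranges overlapped in both diets. Il2rg exceeded Il2rb by 2.38-fold in chow and 3.02-fold in KD, and Il21r exceeded Il15ra by 7.46-fold and 6.56-fold.

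**Figure D1:**
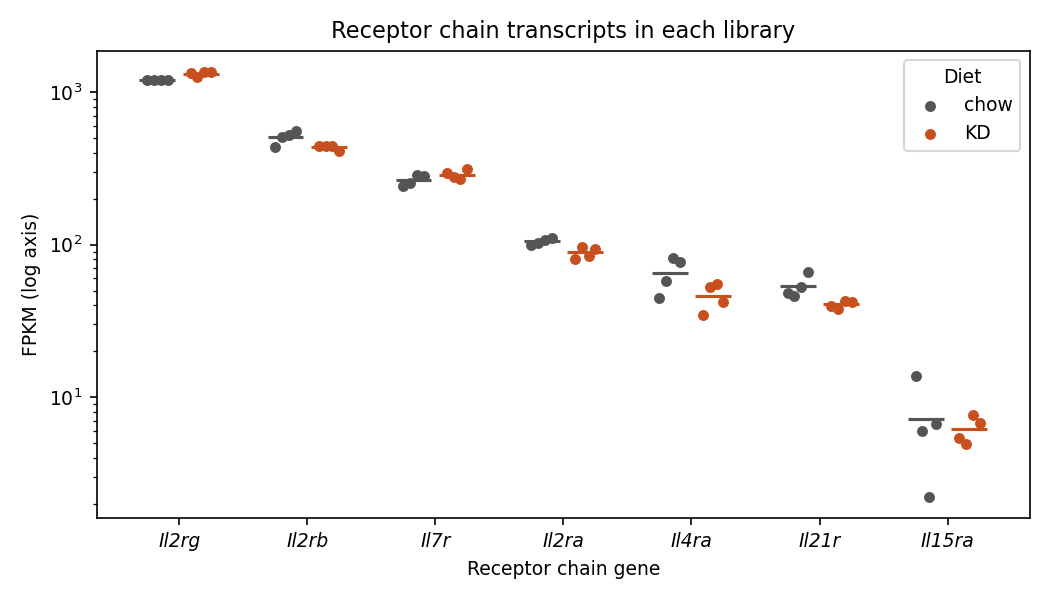
Deposited FPKM (log axis) of the 7 receptor genes with counts in every library, 1 point per library (4 chow, 4 KD) and a line at each diet's mean; Il9r, at 0 in 6 libraries, is not drawn. The genes run from Il2rg at 1201 FPKM in chow to Il15ra at 7.15 FPKM, and only neighbours Il4ra and Il21r overlap within a diet.

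None of the 7 receptor genes that passed the count filter differed between diets past the threshold. By edgeR's quasi-likelihood test with Benjamini-Hochberg adjustment over 13397 genes, 0 of 7 were called, where 68 genes (0.508%) were called in all, 0.328% of the tested genes as higher and 0.179% as lower in KD. DESeq2 and limma also called 0. At an unadjusted p under 0.05 stood 5 of the 7, 4 with a lower and 1 with a higher level in KD, and 8.64% of all tested genes had such a p (4.16% lower and 4.48% higher). In DESeq2 the same 5 genes had an unadjusted p under 0.05. Without single libraries the count was 2 (without chow replicate 3, chow replicate 4 or KD replicate 4), 3 (without KD replicate 1), 4 or 5, and without KD replicates 3 and 4 together it was 2. Il2ra and Il21r were in the count in each of these fits. The median log2 fold change of the 7 genes was -0.21, with 5 below 0, and that of all tested genes was 0.0065, with 49.1% below and 50.9% above 0.

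Il2rg, the shared chain, was slightly higher in every KD library than in any chow library. Its levels were 1845, 1788, 1850.0 and 1903 CPM in chow replicates 1 to 4 and 2020.0, 1917, 2056 and 2049.8 CPM in KD replicates 1 to 4. Its log2 fold change was 0.12 (SE 0.054, 95% interval 0.0018 to 0.24, adjusted p = 0.567), so that KD stood at 109% of chow (interval 100.1% to 118%). The diets did not overlap for Il2rg, Il2ra or Il21r, while 6.05% of the tested genes likewise had no overlap (2.75% lower and 3.3% higher in KD).

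The IL-2 and IL-15 receptor chains other than Il2rg had lower mean levels in KD. For Il2ra the levels were 391, 415, 443 and 476 CPM in chow and 325, 377, 340.1 and 373 CPM in KD, and every KD library lay below every chow library. The log2 fold change of Il2ra was -0.29 (SE 0.085, interval -0.47 to -0.098, adjusted p = 0.286), the smallest p of the set, with KD at 82.0% of chow. DESeq2 gave Il2ra an adjusted p = 0.0517, and over all alternatives its adjusted p ran from 0.0517 to 0.689.

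Il2rb stood at 1139, 1297, 1371 and 1492 CPM in chow and 1159.5, 1165, 1166.5 and 1082 CPM in KD. Chow replicate 1 lay among the KD libraries, whereas the other chow libraries lay above all of them. Its log2 fold change was -0.21 (SE 0.083, interval -0.40 to -0.028, adjusted p = 0.503). NK cells also carry Il2rb, and the part of the lower NK and ILC2 marker sums of KD replicates 2 to 4 in the values of Il2rb, Il2ra and Il21r was not tested.

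Il15ra, which presents IL-15 to neighbouring cells as well as binding it, was at 19.3, 7.49, 3.25 and 9.17 CPM in chow and 8.24, 6.55, 10.6 and 8.98 CPM in KD. All KD libraries lay inside the range of the chow libraries, which spanned from 103 to 461 estimated counts. Its log2 fold change was -0.19 (SE 0.47, interval -1.23 to 0.85, adjusted p = 0.962), and without chow replicate 1 it was 0.37. In chow replicate 1 the endothelial markers also summed to more (115 CPM) than in the other chow libraries (57.4 CPM or less), and their part in this value was not tested.

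The IL-7 receptor gene Il7r, whose product many T cells depend on for survival, was at 759, 782, 899 and 900.4 CPM in chow and 918, 865, 842 and 986 CPM in KD. The diets overlapped, with the highest library in KD and the lowest in chow. Its log2 fold change was 0.11 (SE 0.082, interval -0.071 to 0.29, adjusted p = 0.793), which leaves KD between 95.2% and 123% of chow.

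Il4ra and Il21r, the neighbours on chromosome 7, had the most negative fold changes of the set. Il4ra was at 167, 208, 322 and 299 CPM in chow and 140.3, 203, 203 and 162 CPM in KD. Chow replicates 2, 3 and 4 lay above all KD libraries, replicate 2 only narrowly, and chow replicate 1 lay among them. The log2 fold change of Il4ra was -0.49 (SE 0.21, interval -0.95 to -0.033, adjusted p = 0.544), and KD stood at 71.1% of chow. Il21r was at 113, 107, 125 and 159 CPM in chow and 92.0, 90.2, 101 and 99.7 CPM in KD. Every KD library lay below every chow library, and chow replicate 4 was the highest. The log2 fold change of Il21r was -0.40 (SE 0.13, interval -0.68 to -0.11, adjusted p = 0.37), and without chow replicate 4 it was -0.26.

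**Figure D2:**
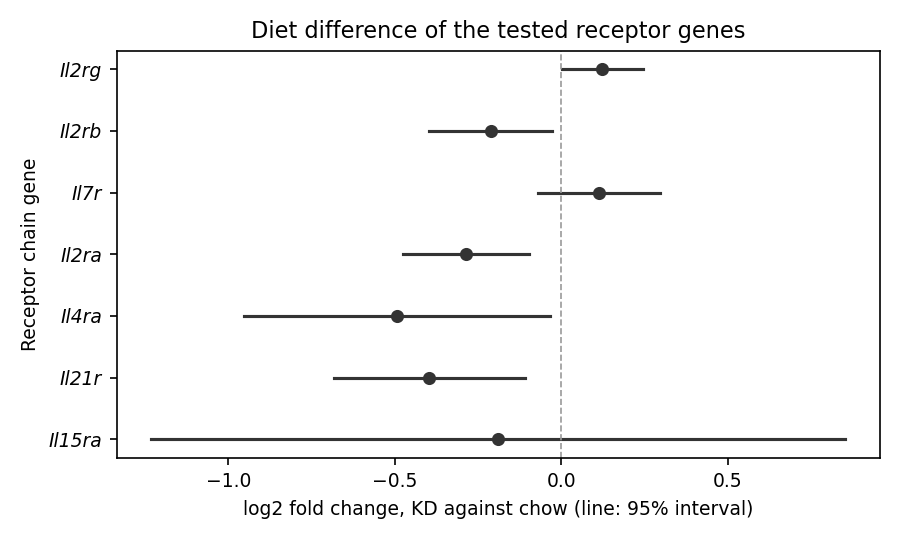
Log2 fold change of KD against chow (point) with its 95% interval (line) for the 7 receptor genes tested, from edgeR's quasi-likelihood fit to 4 samples per diet. Il2rg (0.12) and Il7r (0.11) lie to the right of 0 and the other 5 to the left, from Il15ra at -0.19 to Il4ra at -0.49; the intervals are not adjusted for the number of genes tested.

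Il9r, the IL-9 receptor chain, was at or near 0, and 26 of its 27 counts came from 1 library. It had 0 counts in all 4 chow libraries and 1, 0, 26 and 0 counts in KD replicates 1 to 4. Against a floor of 3 counts over the chow group it was at least 11.4-fold higher, a bound that rests on the 26 counts of KD replicate 3, since 1 KD count is left without that library. It missed the count filter, and without the filter its adjusted p = 0.494 by edgeR's quasi-likelihood test. The summed mast cell and neutrophil markers, Kit and Cpa3 among them, were at 6.72 CPM in that library, at up to 16.0 CPM in the other KD libraries and at 2.82 to 6.25 CPM in chow. The endothelial markers summed to 260.3 CPM in KD replicate 3 and 381 CPM in KD replicate 4, and the part of other cells in the Il9r counts was not tested.

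Set against Il2rg within each library, which removes any scaling between libraries, the partner chains divided. Il2rb stood at 36.3%, 42.02%, 43.5% and 46.2% of the Il2rg FPKM in chow replicates 1 to 4 and at 33.5%, 35.4%, 32.9% and 30.6% in KD. Il2ra stood at 8.33% to 9.22% in chow and at 6.03% to 7.70% in KD, and Il21r at 3.84% to 5.48% and 2.96% to 3.17%. In these 3 genes every KD library lay below every chow library, while Il2rg itself was higher in each KD library. For Il2ra and Il21r this had to follow, since their own FPKM was already lower in every KD library. Il2rb overlapped between diets on its own FPKM and separated only as a share of Il2rg. Of all tested genes 7.89% had no overlap as a share of Il2rg, 6.2% lower and 1.69% higher in KD. Il7r did not separate, at 22.1% ± 1.71 in chow and 21.8% ± 1.44 in KD (SD, n = 4 each). Neither did Il4ra (5.43% ± 1.44 and 3.49% ± 0.769) nor Il15ra (0.595% ± 0.401 and 0.467% ± 0.0819).

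The Il7r level was 50.4% to 55.7% of the Il2rb level in chow and 60.2% to 76.1% in KD, without overlap. On this scale 8.07% of all tested genes lay higher in KD without overlap and 0.694% lower, and Il2rb itself had a lower mean in KD. The α and β chains of the IL-2 receptor overlapped in their proportion, with Il2ra at 21.0% ± 1.36 of the Il2rb FPKM in chow and 20.4% ± 2.29 in KD (SD, n = 4 each). All 7 partner chains together came to 73.7%, 80.9%, 87.6% and 91.1% of the Il2rg FPKM in chow and to 67.7%, 72.6%, 66.8% and 67.6% in KD. These ratios were chosen after the levels had been seen and carry no test.

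**Figure D3:**
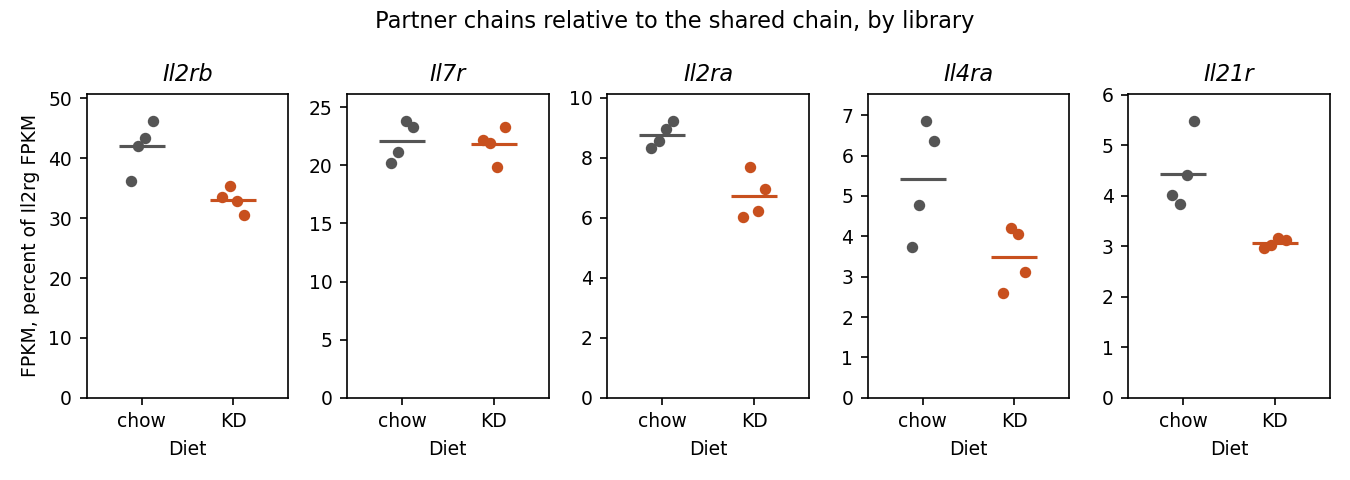
FPKM of 5 partner chains as a percentage of the Il2rg FPKM in the same library, 1 point per library with a line at each diet's mean; each panel has its own axis from 0. Il2rb, Il2ra and Il21r lie lower in all 4 KD libraries than in any chow library, and Il7r and Il4ra overlap between diets.

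The members also differed in how much they varied between samples of 1 diet. The coefficient of variation of CPM in chow was 2.54% for Il2rg, 8.49% for Il2ra, 8.97% for Il7r, 11.1% for Il2rb, 18.3% for Il21r, 29.5% for Il4ra and 69.3% for Il15ra. In KD it was 3.204% for Il2rg, 7.19% for Il2ra, 7.10% for Il7r, 3.601% for Il2rb, 5.74% for Il21r, 17.6% for Il4ra and 19.4% for Il15ra. Across the 8 libraries Il2ra, Il2rb, Il4ra and Il21r varied together, with Pearson's r of log2 CPM from 0.753 (Il21r and Il4ra) to 0.867 (Il4ra and Il2rb) in their 6 pairs. The r of Il2rg with these 4 genes was negative, from -0.408 to -0.685, and with Il7r it was 0.639. These values describe 8 libraries of 2 diets, and the pairs share libraries and scaling.

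The promoters of the 3 genes whose diets did not overlap are shown because these genes differ in direction. Each runs from 250 bases before to 50 bases after the annotated start (RefSeq, GRCm38.p6), with matches in capitals to the letters TTCNNNGAA (STAT), GTAAACA (forkhead), TGTGGT (RUNX), CCGGAAG (ETS) or GGTGTGA (T-box) on either strand. The windows are chrX:101268206-101268505 (minus strand) for Il2rg, chr2:11642542-11642841 (plus strand) for Il2ra and chr7:125603179-125603478 (plus strand) for Il21r.
Il2rg: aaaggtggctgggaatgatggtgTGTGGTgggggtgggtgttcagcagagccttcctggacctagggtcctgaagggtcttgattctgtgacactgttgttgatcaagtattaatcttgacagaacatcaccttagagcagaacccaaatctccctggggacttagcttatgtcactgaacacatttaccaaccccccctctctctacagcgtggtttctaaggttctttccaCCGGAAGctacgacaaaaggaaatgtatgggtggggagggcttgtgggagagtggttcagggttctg
Il2ra: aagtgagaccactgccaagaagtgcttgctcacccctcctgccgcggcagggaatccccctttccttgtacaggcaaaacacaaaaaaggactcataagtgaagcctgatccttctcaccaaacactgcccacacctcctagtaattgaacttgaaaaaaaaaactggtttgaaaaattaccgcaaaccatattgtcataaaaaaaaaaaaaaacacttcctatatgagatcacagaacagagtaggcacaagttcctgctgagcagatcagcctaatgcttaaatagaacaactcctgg
Il21r: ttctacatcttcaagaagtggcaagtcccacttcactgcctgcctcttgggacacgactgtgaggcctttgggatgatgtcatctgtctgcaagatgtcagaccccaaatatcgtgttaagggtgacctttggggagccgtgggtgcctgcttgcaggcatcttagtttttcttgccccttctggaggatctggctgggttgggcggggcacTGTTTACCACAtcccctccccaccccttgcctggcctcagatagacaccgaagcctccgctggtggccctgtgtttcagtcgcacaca

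The Il2rg window holds a RUNX match and, 17 bases before the start, an ETS match. The Il21r window holds a forkhead and a RUNX match that overlap, read as 1 run of capitals, and the Il2ra window holds 0 of these letter strings. Of the members not shown, Il7r has a STAT and a RUNX match, Il9r a RUNX match, Il15ra an ETS match at 1 of its 2 annotated starts, and Il4ra 0. Among 32851 promoters of this length 8.30% hold the STAT letters, 3.65% the forkhead, 16.8% the RUNX, 8.86% the ETS and 3.98% the T-box letters.

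The cytokines that these receptors bind were scarcely transcribed by the sorted cells. No library held a count of Il9 or Il21, and no difference in them was detectable at this depth. Il2, a growth factor of T cells, was at 5.30 ± 1.36 CPM in chow against 3.34 ± 1.597 CPM in KD (SD, n = 4 each; edgeR adjusted p = 0.791). Il15 was at 3.48 ± 1.64 and 3.30 ± 1.78 CPM (edgeR adjusted p = 0.99), Il7 at 0.960 ± 0.795 and 0.766 ± 0.924 CPM (0.984), and Il4 at 0.384 ± 0.338 and 0.443 ± 0.639 CPM (0.989). Of these 4 tested ligands 0 passed, beside 0.508% of all tested genes.

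Of 4 partner genes outside the set, 1 passed the count filter and 0 were called, beside 0.508% of all tested genes. Crlf2, which joins the Il7r product in the receptor for TSLP, was at 48.8 ± 6.57 CPM in chow against 45.9 ± 6.78 CPM in KD (SD, n = 4 each; edgeR adjusted p = 0.943). Il13ra1, which joins the Il4ra product in the second type of IL-4 receptor and is known from non-lymphoid cells, had 0 counts in chow and 1, 30, 47 and 107 counts in KD replicates 1 to 4. With chow set at 3 counts over the group, KD was at least 78.0-fold higher, or at least 43.4-fold without KD replicate 4, which held 107 of the 185 counts, and without the count filter the edgeR adjusted p = 0.193. The stromal marker sum was likewise high in KD replicates 2 to 4 (499.7 to 649.6 CPM) and low in KD replicate 1 (32.3 CPM), and its part in the Il13ra1 counts was not tested. Transcripts of the ligands Il13 and Tslp came to 2 and 3 counts in KD and 0 in chow.

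Of the 7 JAK and STAT genes downstream of these receptors 0 passed and 3 had a negative fold change (median 0.0016). Over all tested genes 0.508% passed and 49.1% had a negative fold change. Jak1 stood at 895 ± 72.2 in chow and 896 ± 93.3 CPM in KD, and Jak3, the kinase bound to the common gamma chain, at 148 ± 22.2 and 155 ± 14.5 CPM (SD, n = 4 each). Stat5a, a main carrier of IL-2, IL-7 and IL-15 signals, had a log2 fold change of -0.19 (SE 0.15, edgeR adjusted p = 0.806) and Stat3, which serves IL-21, of -0.092 (SE 0.093, adjusted p = 0.878).

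Among 8 feedback genes 1 fell, Socs3, and 5 had a negative fold change (median -0.20). Socs3, an inhibitor of JAK signalling induced by STAT3, was at 249.5, 275, 324 and 312 CPM in chow and 166, 191, 215 and 175 CPM in KD. It fell by 0.64 on the log2 scale (SE 0.11, edgeR adjusted p = 0.041), a call kept in 1 of the 8 fits without a single library (adjusted p from 0.0419 without chow replicate 1 to 0.15). Socs2 was at 232 ± 29.9 CPM in chow against 168 ± 15.04 CPM in KD (SD, n = 4 each; log2 fold change -0.47, edgeR adjusted p = 0.131). Cish, which encodes an inhibitor induced by STAT5 in T cells, was at 412, 377, 461 and 464 CPM in chow and 345, 362, 366 and 341 CPM in KD. The diets did not overlap for Cish (log2 fold change -0.28, SE 0.082, edgeR adjusted p = 0.286). Socs1, an inhibitor of JAK kinases, had a log2 fold change of -0.26 (SE 0.11, edgeR adjusted p = 0.556). Of the 8 genes 4 had an unadjusted p under 0.05 in edgeR, all lower. They are the 4 described here because genes were named by smallest p. Sh2b3, Ptpn2, Ptpn6 and Ptpn1 had an unadjusted edgeR p from 0.411 to 0.745, and of them only Sh2b3 had a negative fold change. Over all tested genes 4.16% had an unadjusted p under 0.05 and were lower, 0.179% were called lower and 2.75% lay lower without overlap. DESeq2, which called 292 genes in all, called Socs2 (adjusted p = 0.00614) and Cish (adjusted p = 0.0489). On the log2(FPKM + 1) scale the difference was -0.31 for Socs2 (limma adjusted p = 0.252) and -0.064 for Cish (limma adjusted p = 0.928), both smaller than in the counts.

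Of 10 genes of survival, death and growth that these cytokines are known to regulate 1 fell, Myc, and 9 had a negative fold change (median -0.24). Myc, a driver of growth, was at 162, 187, 130.5 and 157 CPM in chow and 79.5, 112, 72.7 and 86.5 CPM in KD. It fell by 0.86 on the log2 scale (SE 0.15, edgeR adjusted p = 0.0463), and 1 of the 8 fits without a single library kept the call (adjusted p from 0.0397 without KD replicate 2 to 0.161). Ccnd2, a D-type cyclin, was at 1155 ± 53.9 and 952 ± 38.4 CPM (SD, n = 4 each; log2 fold change -0.28, edgeR adjusted p = 0.113). Bcl2, the survival factor maintained by IL-7 and IL-15 in T cells, was at 488, 527, 529 and 497 CPM in chow and 397, 433.5, 302 and 335 CPM in KD, without overlap (log2 fold change -0.48, SE 0.11, edgeR adjusted p = 0.124). Pim2, a survival kinase, had a log2 fold change of -0.54 (SE 0.17, edgeR adjusted p = 0.32). Of the 10 genes 6 had an unadjusted p under 0.05, all lower, beside 4.16% of all tested genes. Over all tested genes 49.1% had a negative fold change, 0.179% were called lower and 2.75% lay lower without overlap. Among these 6 was Bcl2l11, which encodes a death factor rather than a survival factor (log2 fold change -0.70, SE 0.24, edgeR adjusted p = 0.396). DESeq2 called Ccnd2 (adjusted p = 0.000427) and Bcl2 (adjusted p = 0.00125).

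The branches from these receptors to PI3K and MAPK held 11 tested genes, of which 0 passed (median log2 fold change -0.058), beside 0.508% of all tested genes. The 4 with the smallest p were Foxo1 (0.19, edgeR adjusted p = 0.611), Irs2 (-0.21, 0.726), Pik3r1 (-0.12, 0.794) and Foxo3 (-0.39, 0.85). Foxo1 encodes a transcription factor that drives Il7r in T cells, and it stood at 119 ± 10.9 CPM in chow against 136 ± 6.92 CPM in KD (SD, n = 4 each).

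Of 8 tested transcription factors known to act on the receptor genes 0 were called, with a median log2 fold change of 0.043. Over all tested genes 0.508% were called and 3.3% lay higher in KD without overlap, and DESeq2 called 292 genes. Klf2, a factor of quiescent T cells, was at 305, 196.5, 171.5 and 177 CPM in chow and 395, 341, 518 and 340.4 CPM in KD, without overlap (log2 fold change 0.91, SE 0.20, edgeR adjusted p = 0.112). Klf2 passed under DESeq2, sample quality weights, both FPKM settings and without chow replicate 1. Tbx21, which encodes T-bet, an activator of Il2rb, was at 363 ± 71.1 and 248 ± 41.1 CPM (SD, n = 4 each; log2 fold change -0.55, edgeR adjusted p = 0.264), and DESeq2 called it (adjusted p = 0.0167). Gfi1, a repressor of Il7r, was at 49.4 ± 9.37 and 34.6 ± 8.81 CPM (log2 fold change -0.51, edgeR adjusted p = 0.544). Runx1 had a log2 fold change of 0.26 (edgeR adjusted p = 0.577).

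**Figure D4:**
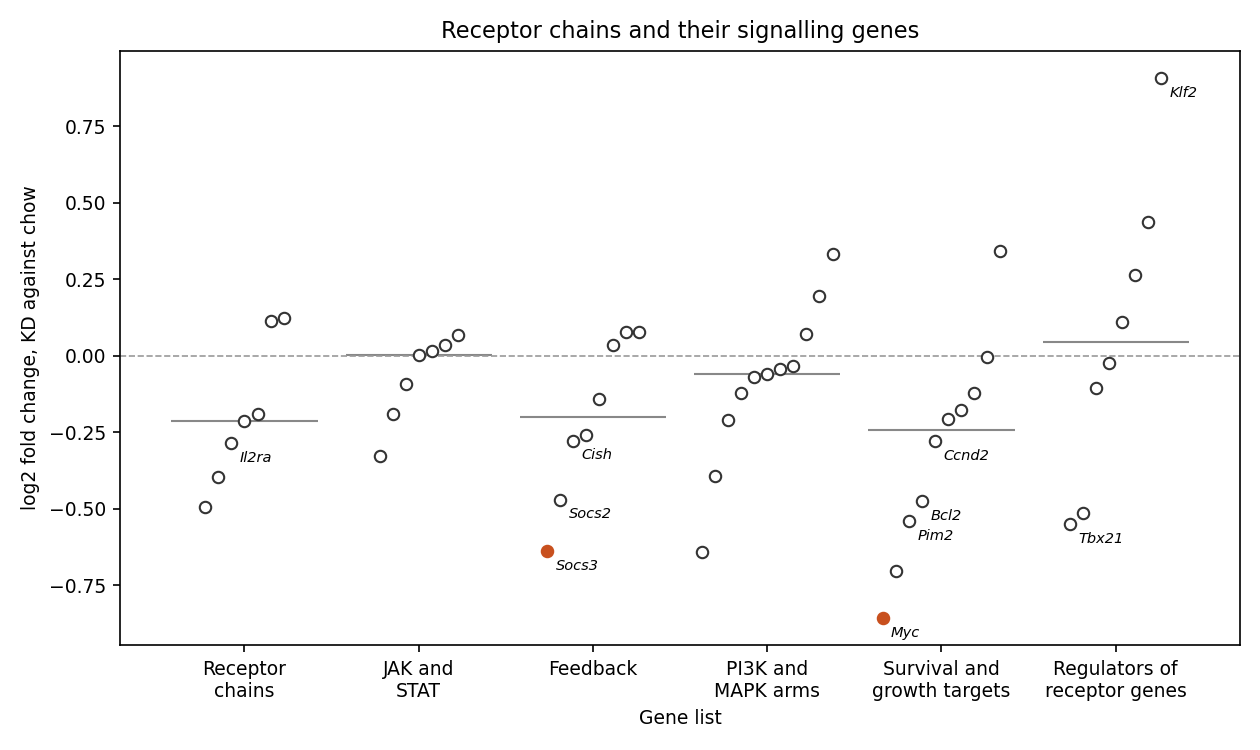
Log2 fold change of KD against chow for the tested genes of the receptor set and of 5 lists of signalling genes, 1 point per gene in order of value, with a grey line at each list's median. Filled points are the genes past an adjusted p of 0.05, Socs3 (-0.64) and Myc (-0.86); names are given for some of the open points with an unadjusted p under 0.01.

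The genes whose log2 CPM followed each member most closely over the 8 libraries were searched among 8310 genes with a mean of at least 10 CPM. For Il2rg they were Cd47 (Pearson's r 0.986) and Fkbp1a (0.976), and 46 genes reached an r of 0.9. For Il2ra they were Fasl, the gene of the Fas ligand (0.99), and Errfi1 (0.981), and 35 genes reached 0.9. Il2rb was followed by Rras2 (0.966) and the death factor gene Bcl2l11 (0.958), Il4ra by Aacs (0.950) and Zfp809 (0.947), and Il21r by Rpl7l1 (0.959) and Tapbpl (0.946). Il7r was followed by Cep41 (0.953) and Chordc1 (0.950), and Il15ra by Pdzd11 (0.937) and Mpv17 (0.904).

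Fasl stood at 116 ± 12.9 CPM in chow against 84.0 ± 12.2 CPM in KD (SD, n = 4 each; edgeR adjusted p = 0.239), and Cd47, which encodes a ligand that restrains phagocytes, at 786 ± 32.6 and 916 ± 70.8 CPM (adjusted p = 0.37). None of these 14 genes passed the threshold, beside 0.508% of all tested genes. Fkbp1a came closest (312.9 ± 15.6 and 434 ± 46.8 CPM, edgeR adjusted p = 0.0582). With 8 libraries and 8310 genes searched, r values of this size describe likeness in these samples.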

How the data were processed

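PolyA RNA was sequenced from 4 chow and 4 KD samples. Estimated counts and FPKM values were deposited by the authors as separate tables of all genes. The submitters' processing notes name BWA, TopHat2, RSEM, DESeq2 and the mouse build GRCm38, with no versions or roles. Estimated counts share out reads that fit several genes. Between 5310 and 5802 genes per library were not whole, and counts were rounded. A spreadsheet had turned 27 symbols of the counts table into dates, and all were restored from the FPKM table. Columns were matched to samples by title.

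Genes were kept by filterByExpr (minimum count 10, minimum total 15), libraries were scaled with TMM factors, and the diets were tested with edgeR's quasi-likelihood method (two-sided, robust, Benjamini-Hochberg over all tested genes, threshold 0.05). SE and 95% intervals come from the F statistic. The fit was tested on simulated data. Versions were edgeR 4.0.16, DESeq2 1.42.0 and limma 3.58.1 under R 4.3.3. Library totals limit precision, and floors (3 counts) cover counting error only. The receptor genes and gene lists were chosen with earlier results of these data known. Named genes were the members, their ligands and partners, up to 4 genes of the smallest p in each signalling list, and the 2 genes most correlated with each member. Promoters were found for 7 of the 8 genes. Single-cell data of the study were not analysed here, and the values of 1 gene covered by the rule are not reported here. Alternatives were other scalings, filters, a replicate block, DESeq2, voom with sample quality weights, limma on log2 of FPKM plus 1 or 0.1, and fits without single samples or without KD replicates 3 and 4.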

Additional observations from a re-analysis of the deposited data

Results flagged for a closer look

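In groups of 4, a library was marked where its gap to the nearest other library relative to the range of its diet exceeded Dixon's 95% critical value. Of 16 groups, 1 (Il9r in chow, at 0 in all libraries) had no range and could not be marked, and 2 were marked. Chance marks about 1 in 20 groups where values are normally distributed, which does not hold for Il9r in KD. Il2rb was lowest in KD replicate 4, at 1082 CPM, while the other 3 KD libraries stood at 1159.5 CPM or above. Il9r was highest in KD replicate 3, at 1.31 CPM, and the next library stood at 0.0477 CPM.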

How the results depend on the processing

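None of the tested receptor genes was called under any of the 18 alternatives run, and the lowest adjusted p was 0.0517 (Il2ra, DESeq2). Il2ra, Il2rb, Il2rg, Il4ra, Il7r and Il21r kept their direction in all 18 (log2 fold changes from -0.331 to -0.235, -0.279 to -0.150, 0.089 to 0.142, -0.643 to -0.345, 0.063 to 0.15 and -0.472 to -0.265). Il15ra, whose fold change was -0.19, turned positive with the replicate block (0.038), sample quality weights (0.222), log2 of FPKM plus 1 (0.0032) or plus 0.1 (0.041), and it ran from -0.481 to 0.37 without single samples, the highest without chow replicate 1; the cause was not tested.

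The 68 genes called over all tested genes became 108 with 5 CPM in 4 samples, 12 with the replicate block, 292 in DESeq2, 126 and 119 with log2 of FPKM plus 1 and plus 0.1, 12 (without chow replicate 4) to 44 (without chow replicate 1) without single samples, and 4 without KD replicates 3 and 4. The labels do not say whether replicate numbers pair the samples. Deviations of same-numbered samples were little correlated (r -0.106 to 0.153 over 8633 genes, and of the 4 numbers only 4 correlated best with its own). With so few numbers this cannot exclude a pairing. With the block 3 of the 7 receptor genes had an unadjusted p under 0.05.

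Among low or flat named genes, Il4 (main 0.22) turned to -1.38 with the replicate block, -0.705 with quality weights, -0.064 and -0.542 with log2 of FPKM plus 1 and plus 0.1, and ran from -0.192 to 0.758 without single samples. On the log2(FPKM + 0.1) scale Socs2 was -0.31 and Cish -0.064, against -0.47 and -0.277 in the counts. Without KD replicates 3 and 4, Il7 turned to 0.669 and Il15 to 0.0897. Without single samples Il7 ran from -1.23 to 0.228, Il15 from -0.488 to 0.145, Crlf2 from -0.141 to 0.0084 and Jak3 from -0.0194 to 0.127. Without KD replicates 3 and 4, Socs3 (-0.706, adjusted p = 0.279) and Myc (-0.733, adjusted p = 0.503) were not called; with the replicate block Socs3 was not called (adjusted p = 0.0713) and Myc was (adjusted p = 0.0482). Depth limits Il9r and the ligands, which stood under 10 CPM. Il15ra also had a mean under 10 CPM in each diet, but it held 103 to 461 estimated counts per library. Its coefficient of variation in chow was 69.3%.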
